A study of Homo sapiens with 6 samples.

Results

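The expression of 9 tight junction genes was examined in HepG2 cells with and without knockdown of ARHGEF2. The genes are CGN, TJP1, OCLN, F11R, CLDN1, CLDN4, CLDN7, CLDN12 and PARD3. They were chosen by name as tight junction genes, with earlier results of these data known, and they are 9 of the 27605 genes in the table. All 9 were found there by symbol. HepG2 is a human liver cancer cell line, which the paper uses as a hepatocellular carcinoma line. The study prepared a control line carrying a non-targeting short hairpin RNA (shNC, 3 libraries) and a line carrying a hairpin against ARHGEF2 (shARHGEF2, 3 libraries). The paper describes serum-containing medium for its cells, and the labels name no further treatment of these lines. The hairpins were delivered by lentivirus, and the sources used here give neither their number nor their sequences. They also do not say whether the libraries of a group came from separate cultures or infections, so the p-values measure only the spread between these libraries.

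Tight junctions seal the space between neighbouring epithelial cells and separate the apical from the basolateral membrane. Claudins form the seal itself, occludin (OCLN) belongs to the MARVEL family of membrane proteins that accompany claudins, and the junctional adhesion molecule JAM-A (F11R) holds neighbouring membranes together. The scaffold ZO-1 (TJP1) links these membrane proteins to actin, cingulin (CGN) is an adaptor on the cytoplasmic face, and PAR3 (PARD3) places the junction together with the other polarity proteins. In hepatocytes, tight junctions border the bile canaliculus and keep bile apart from blood. ARHGEF2 encodes GEF-H1, an exchange factor that activates the small GTPase RHOA. Cingulin is known to bind GEF-H1 at junctions and to hold it inactive, which makes these genes of interest when ARHGEF2 is lowered. Tight junction proteins are regulated at the protein level and by their place in the cell as well, and neither was measured here.

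The values are FPKM, which divide the fragments of a gene by its transcript length and the library size, so levels of different genes can be set side by side. The table gives no read counts. The spacing of its low values gave estimates of 20000000 to 23100000 read pairs for the shNC libraries and 20400000 to 23300000 for the shARHGEF2 libraries. ARHGEF2 itself stood at 13.0, 14.4 and 13.9 FPKM in the shNC libraries and at 4.25, 4.004 and 4.82 FPKM in the shARHGEF2 libraries. Its log2 fold change was -1.47 (SE 0.11, adjusted p = 0.00244, limma), so the targeted gene was lower in every library labelled as a knockdown. Without the filter on low values its adjusted p was 0.0701. Of 18 hepatocyte markers, 11 were in the table, 9 of those stayed below 0.5 FPKM in every library, and VTN (vitronectin) alone reached 1 FPKM in every library, at 5.51 to 6.60. AFP did not exceed 0.0703 FPKM and HNF4A did not exceed 0.10 FPKM, although HepG2 cells are known for both. Of 10 epithelial markers, KRT7, KRT8, KRT18 and KRT19 were at 60.4 to 1124 FPKM, while EPCAM, CDH1, ESRP1, GRHL2 and KRT5 stayed below 0.15 FPKM. The cell line is therefore given here as the labels name it, but its hepatocyte markers were mostly absent from these libraries.

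The test covered the 12291 genes that averaged 0.5 FPKM or more across all libraries, with limma on log2(FPKM + 1) and Benjamini-Hochberg adjustment over all of them. Calls were made below an adjusted p of 0.05. By this rule 34 genes, or 0.277% of those tested, were called, 24 of them (0.195%) higher and 10 (0.0814%) lower in shARHGEF2 cells. The count was 6 to 102 with 1 library left out and 0 with the replicate number as a block. An unadjusted p below 0.05 was met by 1678 genes, or 13.7%. The 3 shARHGEF2 values lay wholly above or wholly below the 3 shNC values in 20.5% of the genes tested, 11.3% above and 9.17% below. With 3 libraries against 3, the smallest p that an exact permutation test of 1 gene can give is 0.1.

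Of the 9 genes, 7 passed the filter on low values (TJP1, F11R, CLDN1, CLDN4, CLDN7, CLDN12 and PARD3), and CGN and OCLN did not. None of the 7 was called, against 0.277% of all genes tested. An unadjusted p below 0.05 was met by 1 of the 7, F11R (14.3%, against 13.7% of all genes tested). The log2 fold changes of the 7 were positive for F11R and CLDN12 and negative for the other 5. Their median was -0.04, against a median of -0.0016 over all genes tested. The groups did not overlap for 1 of the 7 tested genes, F11R, and for CGN among the 2 that were not tested. The 1 in 7 compares with 20.5% of all tested genes, so the count is near the background. Because the libraries are from bulk RNA, a change in the share of cells that express a gene and a change in its RNA per cell cannot be told apart.

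**Figure D1:**
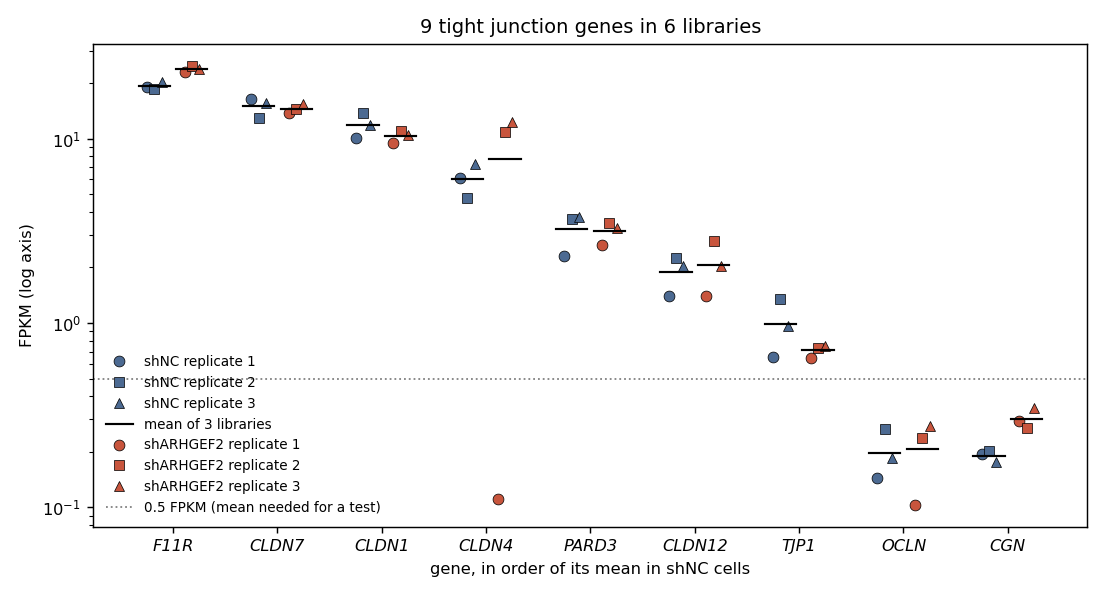
FPKM of the 9 genes on a log axis, 1 point per library, shNC in blue and shARHGEF2 in red, with the mean of the 3 libraries as a bar and the replicate number given by the symbol. The groups are apart only for F11R and CGN, 1 shARHGEF2 library holds CLDN4 at 0.11 FPKM, and CGN and OCLN lie below the dotted line at 0.5 FPKM.

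The 9 genes differed widely in level. In shNC cells F11R was highest, with a mean of 19.2 FPKM, followed by CLDN7 at 14.9, CLDN1 at 11.9, CLDN4 at 6.07, PARD3 at 3.23, CLDN12 at 1.898, TJP1 at 0.990, OCLN at 0.198 and CGN at 0.190 FPKM. Neighbours in this order had separate ranges except CLDN7 with CLDN1 and OCLN with CGN. In shARHGEF2 cells the first 7 genes stood in the same order, from F11R at 23.8 FPKM to TJP1 at 0.710 FPKM, and CGN at 0.302 stood above OCLN at 0.206 FPKM. The ranges of CGN and OCLN overlapped again, and so did those of CLDN1 with CLDN4, CLDN4 with PARD3 and PARD3 with CLDN12.

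F11R and its neighbour on the strand need to be read together, since another gene of the annotation holds F11R exons. F11R (ENSG00000158769) lies on GRCh38 at chr1:160995211-161021348 on the minus strand. AL591806.3 (ENSG00000270149) runs from TSTD1, the gene upstream, into F11R on the same strand at chr1:160997957-161038962 and is a readthrough gene of the pair. It has 2114 exonic bases, and 1853 of them (87.7%) are exonic bases of F11R. F11R has 5066 exonic bases, so part of its sequence, including its 3' end, lies outside the readthrough gene. A read inside the shared exons fits both genes, while reads in the unshared sequence or across the join tell them apart. The join in the readthrough transcript and the same place in an F11R transcript are given next, with 15 bases on each side, in the sense orientation from the GENCODE 29 transcripts. Capitals mark the 15 bases at chr1:161021098-161021112 that both share.
AL591806.3 readthrough: cgtcacctgctgaagGAGTCCTTCGGCGGC
F11R: tgtgtctgttcccagGAGTCCTTCGGCGGC
The lower-case bases come from chr1:161021388-161021402, inside an exon upstream of F11R, in the first sequence, and from chr1:161021113-161021127, inside the first exon of F11R, in the second.

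F11R, which encodes the adhesion molecule JAM-A, was listed at 19.0, 18.5 and 20.1 FPKM in the shNC libraries and at 23.0, 24.8 and 23.7 FPKM in the shARHGEF2 libraries. All 3 shARHGEF2 values were above all 3 shNC values, and the ratio of the means was 1.24. The log2 fold change was 0.30 (SE 0.09, 95% confidence interval 0.09 to 0.50), with an unadjusted p of 0.00928 and an adjusted p of 0.206 in limma, so F11R was not called. An exact two-sided permutation test gave p = 0.1, the smallest possible. The readthrough gene AL591806.3 was listed at 0.0147, 3.86 and 5.76 FPKM in the shNC libraries and at 0.0604, 0 and 0.0474 FPKM in the shARHGEF2 libraries. It thus carried signal in shNC replicates 2 and 3 and almost none in the other 4 libraries, and the groups overlapped (exact permutation test, two-sided p = 0.3).

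Added together, the 2 genes came to 19.0, 22.3 and 25.9 FPKM in the shNC libraries and to 23.0, 24.8 and 23.8 FPKM in the shARHGEF2 libraries. The sums of the groups overlapped, with the highest and the lowest of the 6 both in shNC cells. The ratio of the means of the sums was 1.06 (exact permutation test, two-sided p = 0.6). With F11R replaced by the sum, its log2 fold change was 0.10 (SE 0.12, 95% confidence interval -0.18 to 0.37, adjusted p = 0.794, limma). This sum was chosen after the values were seen. The share of the sum listed under the readthrough gene was 0.0774%, 17.3% and 22.2% in the shNC libraries and at most 0.262% in the shARHGEF2 libraries. TSTD1, the upstream gene, stood at 9.99 to 12.5 FPKM in shNC cells and 11.4 to 14.6 FPKM in shARHGEF2 cells, with overlapping groups. Whether the readthrough RNA differs between the groups or the reads of shared exons were divided differently cannot be told apart from these values.

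**Figure D2:**
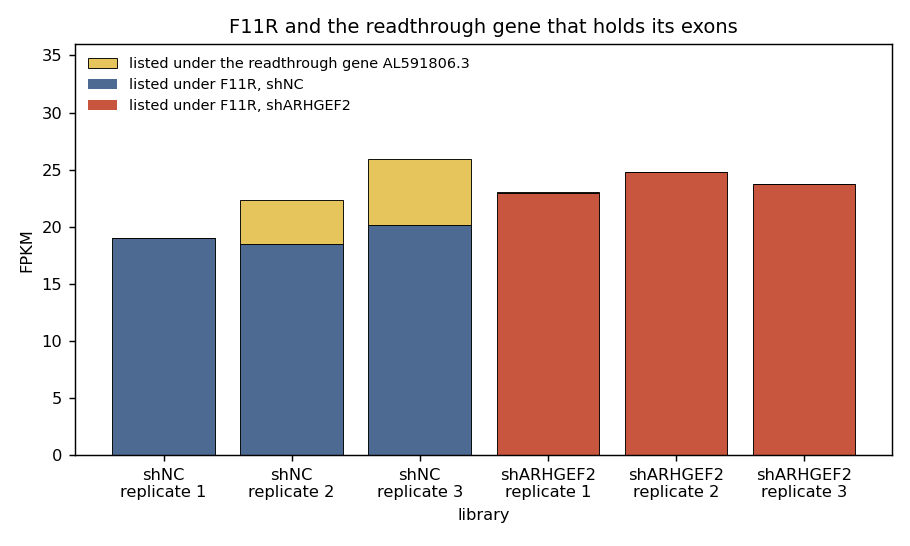
FPKM by library, stacked from 0, of F11R (blue in shNC, red in shARHGEF2) and of the readthrough gene AL591806.3 (yellow). The F11R part alone is higher in all 3 shARHGEF2 libraries, while the stacked sums, 19.0 to 25.9 FPKM in shNC and 23.0 to 24.8 FPKM in shARHGEF2, overlap.

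CGN encodes cingulin, the adaptor that binds GEF-H1. The gene (ENSG00000143375) lies at chr1:151510510-151538692 on the plus strand, and no other gene shares its exonic bases in the annotation. CGN was at 0.194, 0.202 and 0.176 FPKM in the shNC libraries and at 0.293, 0.268 and 0.346 FPKM in the shARHGEF2 libraries. Every shARHGEF2 library was above every shNC library. The means were 0.190 ± 0.0132 and 0.302 ± 0.0396 FPKM (SD, n = 3 each), a ratio of 1.59, and an exact permutation test gave a two-sided p of 0.1. Among the 4538 genes with a mean between 0.1 and 0.5 FPKM, 13.1% had groups that did not overlap, and 6.7% were higher in shARHGEF2 cells in this way.

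At the estimated depths, and taking the longest listed transcript of 5091 nt, the CGN values amount to 22.8, 23.0 and 17.9 read pairs in the shNC libraries and 30.4, 30.1 and 41.0 in the shARHGEF2 libraries. Each CGN value thus rests on few read pairs. With no filter on low values, CGN had a log2 fold change of 0.13 on the log2(FPKM + 1) scale, which compresses changes at this level, and an adjusted p of 0.656 in limma. The run with no filter called 1 gene over the whole table, so it tells little about CGN. With a pseudocount of 0.1 the difference of the mean logs was 0.47, which was not tested. The difference on the log2(FPKM + 1) scale stayed between 0.11 and 0.15 when each library was left out in turn.

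The genes whose levels ran most like CGN over the 6 libraries were sought among the 10211 genes that averaged 1 FPKM or more. They were MYCL (Pearson r = 0.986), a transcription factor of the MYC family, TANGO2 (r = 0.986) and RGS9 (r = 0.979), a regulator of G protein signalling. MYCL was at 0.87, 0.92 and 0.89 FPKM in shNC cells and at 1.16, 1.13 and 1.40 FPKM in shARHGEF2 cells. Like CGN, the gene it was picked to match, it was higher in every shARHGEF2 library, with its highest value in replicate 3. These correlations rest on 6 libraries, were picked as the highest of 10211 and carry no test. The related adaptor CGNL1 (paracingulin) was at 0.0352 to 0.0530 FPKM in all 6 libraries.

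OCLN (ENSG00000197822), on chromosome 5, was at 0.14, 0.27 and 0.19 FPKM in the shNC libraries and at 0.10, 0.24 and 0.28 FPKM in the shARHGEF2 libraries. The groups overlapped almost completely (means 0.198 ± 0.0620 and 0.206 ± 0.0914 FPKM, SD, n = 3, exact permutation test, two-sided p = 0.9). A difference in occludin mRNA was not detectable at this level, where the values amount to 13.6 to 41.6 estimated read pairs. A pseudogene copy, OCLNP1, was listed at 0 in 4 libraries and at 0.22 and 0.19 FPKM in replicate 3 of each group, so reads may have been divided between the copies.

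TJP1 (ENSG00000104067), which encodes ZO-1, was at 0.66, 1.36 and 0.96 FPKM in the shNC libraries and at 0.65, 0.73 and 0.75 FPKM in the shARHGEF2 libraries. Replicate 1 of both groups held nearly the same level, and the 2 highest values were both in shNC cells. The log2 fold change was -0.20 (SE 0.14, 95% confidence interval -0.53 to 0.12, adjusted p = 0.579, limma). PARD3 (ENSG00000148498), which encodes the polarity scaffold PAR3, was at 2.31, 3.65 and 3.74 FPKM in shNC cells and at 2.66, 3.49 and 3.27 FPKM in shARHGEF2 cells. Its groups overlapped, with the lowest value of each in replicate 1. The log2 fold change was -0.02 (SE 0.17, 95% confidence interval -0.40 to 0.36, adjusted p = 0.982, limma).

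Of the 4 claudins, CLDN7 was the highest. CLDN7 was at 16.3, 12.9 and 15.6 FPKM in the shNC libraries and at 13.7, 14.4 and 15.4 FPKM in the shARHGEF2 libraries, where the shARHGEF2 values lay inside the shNC range. Its log2 fold change was -0.04 (SE 0.11, 95% confidence interval -0.30 to 0.23, adjusted p = 0.936, limma). Its exons share 269 bases with AC003688.1 on the same strand, a gene without values here, and 38 with ELP5 on the other strand. CLDN1, needed for the skin barrier and known as a coreceptor of hepatitis C virus, was at 10.0, 13.8 and 11.9 FPKM in shNC cells and at 9.46, 11.1 and 10.4 FPKM in shARHGEF2 cells. The CLDN1 groups overlapped (log2 fold change -0.18, SE 0.13, 95% confidence interval -0.48 to 0.11, adjusted p = 0.587, limma).

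CLDN12, a claudin that lacks the PDZ-binding end by which most claudins bind ZO proteins, was at 1.40, 2.25 and 2.05 FPKM in shNC cells and at 1.40, 2.77 and 2.03 FPKM in shARHGEF2 cells. The same-numbered libraries of the groups were close for replicates 1 and 3 and further apart for replicate 2, and the ranges overlapped. Its log2 fold change was 0.07 (SE 0.19, 95% confidence interval -0.36 to 0.50, adjusted p = 0.921, limma). Of its 6741 exonic bases, CLDN12 shares 371 with AC006153.1, 347 with GTPBP10, 276 with AC002456.2 and 201 with CDK14, all on the same strand. AC006153.1 did not exceed 0.0184 FPKM, and AC002456.2 has no values here. GTPBP10 was at 0.30 to 0.46 FPKM and CDK14 at 1.42 to 2.60 FPKM.

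CLDN4 (ENSG00000189143, chr7:73799542-73832693, plus strand) had the widest spread of the 9 genes. It was at 6.12, 4.77 and 7.302 FPKM in the shNC libraries and at 0.11, 10.8 and 12.4 FPKM in the shARHGEF2 libraries. Thus shARHGEF2 replicate 1 lay far below all other libraries, while replicates 2 and 3 lay above every shNC library. The fit across all 6 gave a log2 fold change of -0.32 (SE 1.07, 95% confidence interval -3.09 to 2.45, adjusted p = 0.939, limma). The mean FPKM ran the other way, from 6.07 in shNC to 7.77 in shARHGEF2 cells (ratio 1.28). An exact permutation test of the difference of these means gave a two-sided p of 0.7. Without shARHGEF2 replicate 1 the direction of the fit turned, with a log2 fold change of 0.85 (SE 0.17, adjusted p = 0.138, limma), still not called. The 0.11 FPKM amounts to 9.41 estimated read pairs, against 445 to 1200 in the other 5 libraries.

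Few genes had such a low value in 1 library. Among 5433 genes with a median of at least 5 FPKM in the other 5 libraries, 8 stood in shARHGEF2 replicate 1 below 10% of that median, CLDN4 and AHNAK among them. AHNAK was at 0.746 FPKM there and at 5.78 to 9.25 FPKM elsewhere. The other 5 libraries held 3 to 8 such genes each, so replicate 1 did not stand apart in this count. Of the genes beside CLDN4 on chromosome 7, CLDN3 was at 8.42 FPKM in this library and METTL27 at 1.47 FPKM, both inside the range of the other 5. A cause for the single low CLDN4 value was not tested.

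The 9 genes hold 4 of the 23 claudins searched for, and 16 of the 23 were in the table. Of those, 8 stayed below 0.15 FPKM in every library, CLDN2, CLDN5 and CLDN18 among them. CLDN7 made up 30.7% ± 3.49 of the summed claudin FPKM in shNC cells and 28.9% ± 4.15 in shARHGEF2 cells (SD, n = 3). CLDN1 made up 24.6% ± 4.51 and 20.5% ± 2.50, and CLDN3 14.4% ± 1.91 and 18.2% ± 2.17. CLDN4 made up 12.4% ± 1.91 in shNC cells and 13.9% ± 11.8 in shARHGEF2 cells, from 0.27% in replicate 1 to 21.8% in replicate 3. The claudins summed to 47.3, 46.4 and 52.2 FPKM in the shNC libraries and to 40.7, 55.3 and 56.8 FPKM in the shARHGEF2 libraries. Without CLDN4 the sums were 41.2, 41.6 and 44.9 FPKM against 40.6, 44.5 and 44.4 FPKM, so the spread among the shARHGEF2 libraries was largely that of CLDN4.

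**Figure D3:**
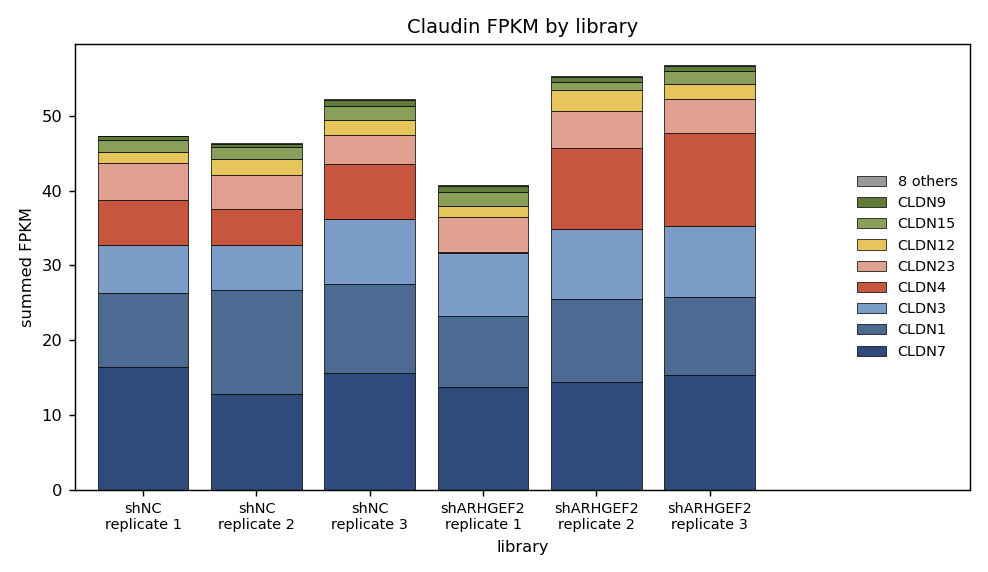
Summed FPKM of the claudins by library, stacked from 0, with the 8 most abundant shown apart. CLDN7, CLDN1 and CLDN3 (blue) are present in all 6 libraries, and the CLDN4 block (red) is missing from shARHGEF2 replicate 1.

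For 5 of the 9 genes (TJP1, CLDN1, CLDN12, PARD3 and OCLN), replicate 1 was the lowest library in both groups. The same held for 27.7% of all genes tested, for 52.2% of those with a GC content under 45% and for 5.41% of those with a GC content of at least 55%. GC contents of the longest listed transcripts were 38.1% for CLDN12, 39.9% for OCLN, 41.5% for CLDN1, 44.8% for TJP1 and 50.3% for PARD3. Those of the genes without the pattern were 47.6% for F11R, 56.1% for CGN, 57.5% for CLDN4 and 59.6% for CLDN7. F11R thus lacked the pattern at a GC content below that of PARD3. The pattern was counted only where both groups had it, and its cause was not tested. With the GC trend removed from each library, again none of the 7 tested genes was called.

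The wider set of tight junction genes was described from a list of 78, with 67 in the table and 43 tested. None of the 43 was called (lowest adjusted p = 0.117, limma), against 0.277% of all genes tested. Of their log2 fold changes 26 were positive and 17 negative, and the median was 0.04. An unadjusted p below 0.05 was met by 6 of the 43 (4 higher, 2 lower), which is 14.0% against 13.7% over all genes tested. Groups did not overlap for 8 (6 higher, 2 lower), which is 18.6% against 20.5% over all genes tested. The 105 tested genes that the table itself annotates to the KEGG tight junction pathway held 1 called gene, ARHGEF2. Without it, 0 of 104 were called, against 0.277% of all genes tested, 13 (12.5%, against 13.7%) had an unadjusted p below 0.05 (6 higher, 7 lower) and the median log2 fold change was -0.01.

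**Figure D4:**
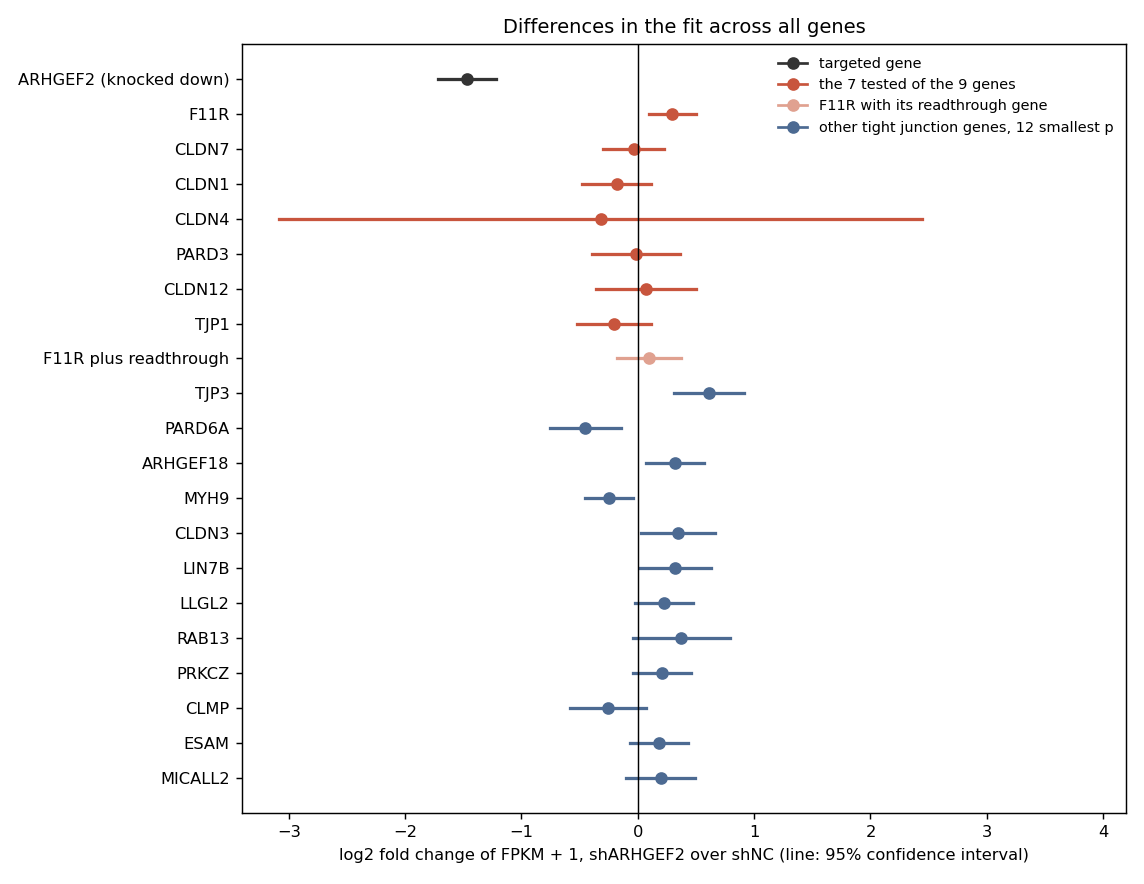
Log2 fold change of FPKM + 1, shARHGEF2 over shNC, with its 95% confidence interval, for ARHGEF2, the 7 tested genes of the 9, F11R summed with its readthrough gene, and the 12 other tight junction genes with the smallest p. ARHGEF2 lies far to the left at -1.47, CLDN4 has an interval from -3.09 to 2.45, and the F11R interval includes 0 once the readthrough gene is added.

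Among scaffolds and adaptors, TJP3, which encodes ZO-3, the relative of ZO-1, had the smallest p of the list. TJP3 was at 2.68, 2.18 and 3.13 FPKM in the shNC libraries and at 4.36, 4.49 and 4.87 FPKM in the shARHGEF2 libraries. The groups were well apart, and the log2 fold change was 0.61 (SE 0.13, 95% confidence interval 0.31 to 0.91). Its unadjusted p was 0.00128 and its adjusted p 0.117 in limma, with a range of 0.0724 to 0.401 over the other settings, so TJP3 was called in none. TJP3 was the 1 of 9 tested scaffolds and adaptors whose groups did not overlap (11.1%, against 20.5% of all genes tested).

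Among polarity proteins, 4 of 13 tested (30.8%, against 20.5% of all genes tested) had groups apart, 3 higher and 1 lower. PARD6A, which encodes the PAR6 partner of PAR3 and atypical protein kinase C, was at 8.47, 6.72 and 7.74 FPKM in shNC cells and at 5.24, 4.62 and 6.14 FPKM in shARHGEF2 cells. All 3 shARHGEF2 values were the lower ones (log2 fold change -0.45, SE 0.13, adjusted p = 0.199, limma). The kinase gene PRKCZ was at 2.90 to 3.20 FPKM in shNC cells and 3.57 to 3.86 FPKM in shARHGEF2 cells (adjusted p = 0.443, limma). LIN7B, of the Crumbs side of the polarity machinery, and LLGL2, a basolateral polarity gene, also had higher values in every shARHGEF2 library, with adjusted p of 0.344 and 0.413 in limma. SCRIB, at 43.1 to 50.3 FPKM, and LLGL1, at 16.3 to 19.7 FPKM, were the most abundant polarity genes, and their groups overlapped.

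RHOA regulators of the junction were 8 tested genes, with a median log2 fold change of -0.06. ARHGEF18, another RHOA exchange factor that acts at tight junctions, was at 14.9, 14.8 and 18.4 FPKM in shNC cells and at 20.9, 20.2 and 19.5 FPKM in shARHGEF2 cells. All 3 shARHGEF2 values were the higher ones (log2 fold change 0.32, SE 0.11, adjusted p = 0.255, limma), and the gene shares exons with AC008878.3 in the annotation. MYH9, which encodes the heavy chain of nonmuscle myosin IIA, was at 85.1, 99.3 and 97.9 FPKM in shNC cells and at 81.9, 76.0 and 78.8 FPKM in shARHGEF2 cells. All 3 shARHGEF2 values were below the shNC values (log2 fold change -0.25, SE 0.09, adjusted p = 0.280, limma). RHOA itself, the substrate of GEF-H1, was at 210 to 222 FPKM and 205 to 212 FPKM, with overlapping groups (adjusted p = 0.866, limma).

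CLDN3 was the one other claudin with an unadjusted p below 0.05. It was at 6.31, 6.12 and 8.65 FPKM in shNC cells and at 8.42, 9.44 and 9.53 FPKM in shARHGEF2 cells. The highest shNC value exceeded the lowest shARHGEF2 value, so the groups overlapped (log2 fold change 0.35, SE 0.14, adjusted p = 0.326, limma). Among adhesion molecules, ESAM was at 3.18 to 3.40 and 3.65 to 4.14 FPKM without overlap (adjusted p = 0.499, limma), and CLMP was at 7.36 to 10.4 and 6.06 to 7.47 FPKM with overlap (adjusted p = 0.478, limma). RAB13, a GTPase of junction traffic that shares exonic bases with AL358472.6, was at 16.5 to 26.6 and 24.3 to 32.7 FPKM, its partner MICALL2 at 1.07 to 1.31 and 1.21 to 1.81 FPKM, and the nuclear partner YBX3 at 28.5 to 32.2 and 30.1 to 31.3 FPKM, each with overlapping groups.

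Among the 24 wider genes that were in the table but too low to test, WNK4, a kinase known to act on claudins, was the one whose groups did not overlap. It was at 0.10, 0.07 and 0.12 FPKM in shNC cells and at 0.32, 0.37 and 0.34 FPKM in shARHGEF2 cells. Among all genes with a mean of 0.1 to 0.5 FPKM, 13.1% had groups that did not overlap, and WNK4 was singled out after its values were seen. MARVELD2 (tricellulin), of the occludin family, was at 0.23 to 0.47 FPKM with overlapping groups.

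The neighbouring junctions were set beside the tight junction. Of 20 adherens junction and desmosome genes, 19 were in the table and 15 were tested. None was called (against 0.277% of all genes tested) and none had an unadjusted p below 0.05 (against 13.7%). The median log2 fold change was 0.05. Groups did not overlap for 1 of the 15 (6.67%, against 20.5%), NECTIN3, at 0.65 to 0.87 FPKM in shNC cells and 0.37 to 0.64 FPKM in shARHGEF2 cells (adjusted p = 0.488, limma). CDH1 (E-cadherin) did not exceed 0.0433 FPKM, while CDH2 (N-cadherin) was at 4.98 to 9.84 FPKM, JUP (plakoglobin) at 141 to 175 FPKM and NECTIN2 at 44.95 to 52.5 FPKM. NECTIN4 (adjusted p = 0.387), PERP (0.640), PKP3 (0.640), VCL (0.682) and CTNNA1 (0.700, all limma) had overlapping groups. Whether tight junction genes differed from these in their response was not tested.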

How the data were processed

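RNA sequencing of 6 libraries (3 shNC, 3 shARHGEF2, groups from the sample titles) was deposited by the authors as 1 table of FPKM per gene. The submitters' processing notes name cutadapt 1.9, HISAT2 2.0.4, UMI-tools, StringTie 1.3.4d, DESeq2, edgeR and the build hg19, without roles. The protocol marks strand and adds molecular identifiers, but whether the counting used strand is not given in the sources used here. The table's fold change and p-value columns, which hold the authors' own comparison, were not used. It has no coordinates, and positions, transcript lengths and GC contents were taken by identifier from GENCODE 29 on GRCh38, where 94.7% of the 112516 listed transcripts were found.

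Values were tested with limma 3.58.1 (trended, robust variances) in R 4.3.3 on log2(FPKM + 1) for genes averaging 0.5 FPKM or more, without a block. Fold changes on this scale understate those of low genes. FPKM are not counts, so no count test was run, and of low values only 42.4% to 43.7% lay near whole read pairs against 20% by chance, which gave depths but not counts. Depth estimates were limited to 15000000 to 30000000 pairs. Single genes were compared by exact two-sided permutation tests (SciPy 1.17.1). The method was tested on simulated data. The correlations of residuals between libraries of the same number were 0.184, 0.159 and -0.105. Replicate 1 was the lowest library in both groups for 27.7% of genes tested. Whether the numbers pair the libraries was not tested.

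The 9 genes and the gene lists were chosen with earlier results of these data known. Named besides the 9 are ARHGEF2, the listed genes with the smallest p (12 of the wider list, 6 of the adherens list), the 6 most abundant of the wider list, and the 3 genes most like CGN. Other named genes are neighbours, overlapping genes or markers, or were chosen after their values were seen. Mesenchymal markers summed to 135 to 213 FPKM in shNC and 126 to 198 FPKM in shARHGEF2 libraries, endothelial markers to 3.85 to 4.02 and 4.48 to 5.01 FPKM, and leukocyte markers, nearly all CD68, to 60.6 to 88.0 and 75.3 to 85.7 FPKM. Their part in any result was not tested. Alternatives were a replicate block, pseudocount, filter, normalization, variance and left-out library settings. Removal of a GC trend (loess, span 0.3), alone or with the block, and the F11R sum were added after the data were seen.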

Additional observations from a re-analysis of the deposited data

How the results depend on the processing

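No tested gene of the 9 (7 or fewer, and all 9 only with no low filter), of the wider tight junction list or of the adherens junction and desmosome list was called under any alternative run. The count of called genes over the whole table did depend on the setting, and runs that called 0 or 1 gene in all tell little about the listed genes. It was 0 with a replicate block (1976 genes at an unadjusted p below 0.05), 1 with no low filter (0 higher, 1 lower), 54 with at least 1 FPKM in 3 or more libraries (39 higher), 19 with quantile normalization (12 higher), 7 in limma without trended or robust variances (4 higher, 3 lower), 56 with the GC trend removed (39 higher, 17 lower) and 1 with the GC trend removed in a fit with the replicate block (0 higher, 1 lower). Leaving out 1 library at a time gave 6 to 102 called genes, 3 to 76 higher and 3 to 26 lower, namely 13, 14 and 102 without shNC replicates 1, 2 and 3 and 12, 15 and 6 without shARHGEF2 replicates 1, 2 and 3. ARHGEF2 kept its direction in all settings but missed the threshold with the replicate block (log2 fold change -1.47, adjusted p = 0.0716), with no low filter (-1.47, adjusted p = 0.0701) and with the GC trend removed in the blocked fit (-1.50, adjusted p = 0.0804, all limma). The cause was not tested.

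Of the 6 libraries, 4 correlated best with the library of their own number, and whether the numbers pair the libraries was not tested. With the replicate block 0 of the 7 tested genes were called, but so were 0 of all 12291 genes, so that run tells nothing about the 7. The median log2 fold change of the tested genes among the 9 ranged from -0.19 to 0.07 with 1 library left out. F11R ranged from 0.10, the sum with its readthrough gene, to 0.33 over all settings, with adjusted p from 0.147 to 0.794. The CGN difference was 0.47 with a pseudocount of 0.1. Directions turned when 1 library was left out, with ranges of -0.947 to 0.847 for CLDN4 (the positive value without shARHGEF2 replicate 1), -0.133 to 0.0285 for CLDN7, -0.0940 to 0.233 for CLDN12, -0.186 to 0.0731 for PARD3 and -0.0344 to 0.0712 for OCLN, which was not tested. RHOA turned to 0.0087 with quantile normalization. These values were not called before or after, and all are log2 fold changes. Values under 0.5 FPKM rest on few read pairs, which limits CGN and OCLN most.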
